A study of Homo sapiens with 3 samples.

Results

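The transcriptional coactivators YAP1 and WWTR1, their DNA-binding partners TEAD1 and TEAD4, and 6 genes widely used as readouts of YAP and TEAD were compared between an EGFR-mutant lung cancer line and its osimertinib-resistant derivatives. The members were all probes whose gene name on the array equals one of 10 symbols (YAP1, WWTR1, TEAD1, TEAD4, CYR61, CTGF, ANKRD1, AMOTL2, LATS2 and AJUBA). The probes were taken by name, but the 10 symbols were chosen with earlier results of these data known. They took 10 of the 43316 genes, 11 of the 58200 probes and 20 spots on each array. CYR61 and CTGF are the older names of CCN1 and CCN2, and YAP1, WWTR1, TEAD1 and TEAD4 are the effectors of the pathway rather than its targets.

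H1975 is a non-small cell lung cancer cell line that harbors mutated EGFR and is sensitive to osimertinib, an inhibitor of mutant EGFR. OR1 and OR2 were selected from it separately in the presence of osimertinib at doses raised to 2 μmol/L during 4 months. All 3 lines were grown in RPMI medium with fetal bovine serum, and H1975 received no osimertinib selection. Each of OR1 and OR2 is 1 selected line, described as a clone in the methods, and whether osimertinib was in the medium when RNA was taken is not given in the sources used here. The comparison asks which mRNAs differ between each resistant line and the line from which it was derived.

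YAP1 and TAZ, the protein encoded by WWTR1, carry signals of cell density, cell shape and mechanical tension to the nucleus. The Hippo kinases, in a cascade that ends in LATS1 and LATS2, phosphorylate both proteins and hold them in the cytoplasm or mark them for degradation. Unphosphorylated YAP1 and TAZ bind TEAD factors, which recognize the letters GGAATG in DNA, and activate genes such as CTGF, CYR61 and ANKRD1. Some targets, among them LATS2 and AMOTL2, encode inhibitors of YAP1 and TAZ. An mRNA level does not report phosphorylation or nuclear localization, which were not measured on these arrays.

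RNA of each line was hybridized to 1 Agilent single-colour array, and all 3 arrays were on the same slide. Spot brightness, called intensity, is the measurement, which the scanner software had corrected for background. For each ratio the intensity of a probe was first divided by the array's 75th percentile (138.1 to 161.8), and the result is called the scaled intensity. Between 45.6% and 45.9% of probes were called well above background by the scanner software on each array. By its brightest probe, each of the 10 genes was well above background on every array, so none was lost to a filter on low values, and every ratio below is a measured ratio except where "at least" or "at most" marks a bound. A technical SD of each log2 ratio was propagated from the scanner software's error of each spot, and was 0.20 or 0.21 for 9 of the genes and 0.27 to 0.28 for ANKRD1. Each line had a single array, so no replicate and no test could be had, precision is limited by the number of arrays, and the technical SD does not include variation between cultures. The ratios of OR1 and OR2 share the H1975 array, so an error on that array would enter both. A change in the share of cells that express a gene and a change in RNA per cell cannot be told apart in such lines.

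The classical target genes CTGF, ANKRD1 and CYR61 were higher in both resistant lines, while WWTR1 was lower in both. CTGF and ANKRD1 had a ratio to H1975 of at least 2 in both OR1 and OR2, the threshold of the methods, which makes 2 of 10 genes beside 5.09% of the 22417 genes with signal well above background in 1 or more lines. WWTR1 had a ratio of at most 0.5 in both lines, 1 of 10 genes beside 6.32% of all genes. In OR1 alone, 3 of 10 genes had a ratio of at least 2 (CTGF, ANKRD1 and CYR61), beside 8.95% of all genes, and 1 of 10 had a ratio of at most 0.5, beside 9.34%. In OR2 alone, 2 of 10 had a ratio of at least 2, beside 7.47%, and 1 of 10 had a ratio of at most 0.5, beside 8.41%. The ratio lay above 1 in both lines for 8 of 10 genes, beside 35.3% of all genes (7 of 10 with scaling on spike-in probes, where AJUBA in OR1 was at 0.809), and below 1 in both for 1 of 10, beside 39.4%. The remaining gene, LATS2, lay on either side of 1. Over the 18589 genes well above background on every array, as all 10 members were, 4.77% had a ratio of at least 2 in both lines. At most 0.5 in both were 4.7% of these 18589, and 7108 lay above 1 in both and 7404 below. The median ratio of the 10 genes was 1.58 in OR1 and 1.63 in OR2, beside 1.03 and 0.961 over all genes with a ratio. With so few genes, 1 gene is 10% of the set, and most ratios above 1 were under 2. Scaling on the spike-in probes lowered all genes of OR1 alike, to a median log2 ratio of -0.59 over all genes. The share of all genes above or below 1 in both lines was not counted with that scaling. It left YAP1 at 1.15, TEAD1 at 1.02, TEAD4 at 1.07 and AMOTL2 at 1.0 in OR1. In the same line CTGF was at 2.42, ANKRD1 at 6.88 and WWTR1 at 0.291.

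**Figure D1:**
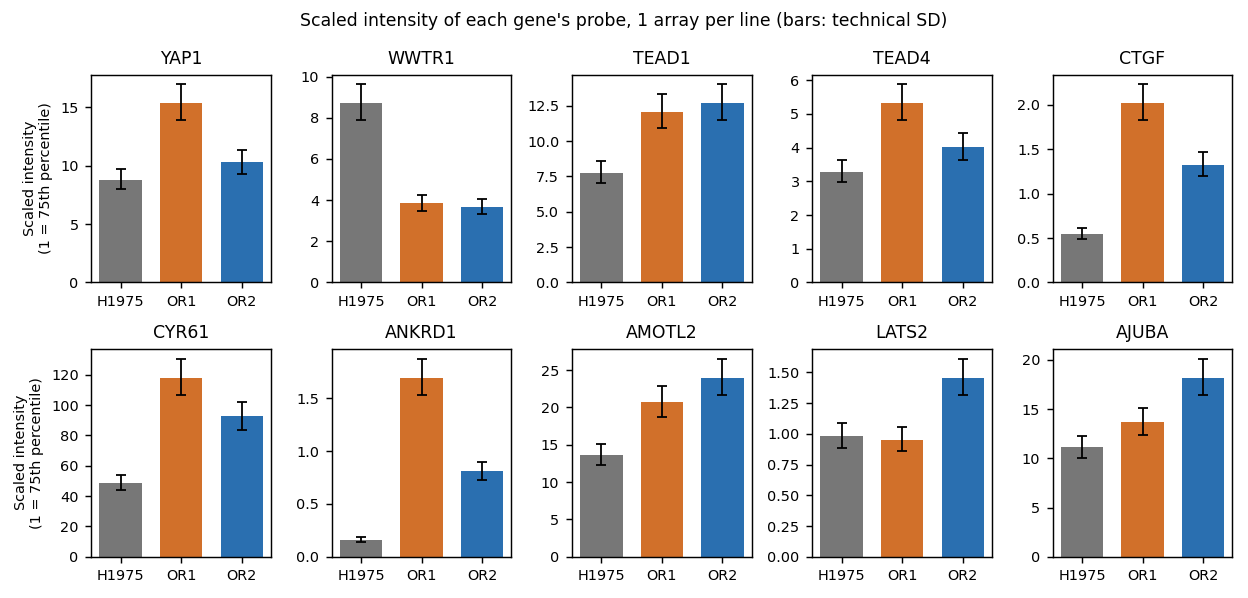
Scaled intensity (vertical axis, 1 is the 75th percentile of the array) of the brightest probe of each of the 10 genes in H1975, OR1 and OR2, 1 array per line, with bars of 1 technical SD. WWTR1 was lower in both resistant lines, LATS2 was the gene with OR1 next to H1975, and the other 8 genes were above H1975 in both (AJUBA in OR1 was below it with spike-in scaling); each panel has its own scale, so heights are not comparable between genes.

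The coactivator paralogs moved in opposite directions, YAP1 above H1975 and WWTR1 below it. YAP1 (NM_006106, probe on hg19, chromosome 11 from 102100584 to 102100643) had intensities of 1387 (H1975), 2118 (OR1) and 1665 (OR2). The ratio came to 1.74 for OR1 and 1.17 for OR2, or 0.80 and 0.22 on the log2 scale, so YAP1 in OR2 lay about 1 technical SD from H1975 and in OR1 well beyond it. Among genes well above background on every array, 11.7% had a ratio at least as high in OR1 and 31.9% in OR2. The probe for YAP1 was printed in 10 spots on each array, which gives a second view of the measurement error. Scaled intensity ran from 8.21 to 9.47 over the spots of H1975, from 14.8 to 15.98 in OR1 and from 9.98 to 10.8 in OR2. The ranges of the 3 lines did not overlap, and their order was OR1, OR2, H1975. The order of the resistant lines depended on the scaling, since with spike-in probes YAP1 stood at 1.15 in OR1 and at 1.23 in OR2. Spots of a probe are repeats of the same labeled RNA and not replicates of a line. The SD between the YAP1 spots was 0.063, 0.033 and 0.035 on the log2 scale in H1975, OR1 and OR2, against a median of 0.051 to 0.054 for the 206 probes spotted 10 times and well above background on all 3 arrays.

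WWTR1 (NM_015472, chromosome 3 from 149238593 to 149238652) had intensities of 1370 (H1975), 530.6 (OR1) and 590.1 (OR2). The ratio came to 0.442 for OR1 and 0.419 for OR2, a fall of several technical SDs in both lines, and OR1 and OR2 differed from each other by less than 1 technical SD (0.291 and 0.440 with spike-in scaling). Of the 18589 genes that were called well above background on every array, 94.1% had a ratio at least as high as WWTR1 in OR1 and 96.0% in OR2. WWTR1 was the only member with a second probe (ENST00000474080, chromosome 3 from 149419490 to 149419549). On no array was that probe well above background, with intensities of 9.63, 4.83 and 8.64, and it gives no ratio. When the log2 intensities of both probes were combined by their median, the ratio of WWTR1 became 0.502 in OR1 and 0.605 in OR2 and it was no longer counted as down-regulated.

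TEAD1 and TEAD4, the DNA-binding factors that recruit YAP1 and TAZ to their targets, were moderately higher in the resistant lines. The intensity of TEAD1 (NM_021961, chromosome 11 from 12965225 to 12965284) was 1221 (H1975), 1663 (OR1) and 2049 (OR2), a ratio of 1.55 and 1.63. OR1 and OR2 were both above H1975 by more than 3 technical SDs and within 1 technical SD of each other, whereas with spike-in scaling the ratios were 1.02 and 1.71. TEAD4 (NM_003213, chromosome 12 from 3149391 to 3149555) had an intensity of 517.7, 733.7 and 649.8 in the same order, giving ratios of 1.62 for OR1 and 1.22 for OR2. Its level was highest in OR1, with OR2 between OR1 and H1975, but with spike-in scaling OR2 was above OR1 (1.28 and 1.07). Neither gene reached a ratio of 2. Of the 18589 genes well above background on every array, 16.4% had a ratio at least as high as TEAD1 in OR1 and 12.3% in OR2. For TEAD4 these shares were 14.6% and 28.4%.

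The secreted matricellular proteins CTGF and CYR61 and the nuclear ankyrin-repeat protein ANKRD1 are the most widely used targets of YAP and TEAD, and all 3 had their highest level in OR1, though with spike-in scaling CTGF and CYR61 were highest in OR2. The promoters of CTGF and ANKRD1 are shown because these were the members with a ratio of at least 2 in both lines, and that of AMOTL2 because its GGAATG stands on the other strand. Each is the 250 bases before a start of the gene, from RefSeq on GRCh38.p14, on the minus strand of chr6:131951373-131951622 for CTGF, chr10:90921088-90921337 for ANKRD1 and chr3:134374448-134374697 for AMOTL2. AMOTL2 has another RefSeq start, whose window held no GGAATG on either strand, and the start with the motif was chosen for printing. They are written 5′ to 3′, and capitals mark GGAATG or its reverse complement, CATTCC.
CTGF: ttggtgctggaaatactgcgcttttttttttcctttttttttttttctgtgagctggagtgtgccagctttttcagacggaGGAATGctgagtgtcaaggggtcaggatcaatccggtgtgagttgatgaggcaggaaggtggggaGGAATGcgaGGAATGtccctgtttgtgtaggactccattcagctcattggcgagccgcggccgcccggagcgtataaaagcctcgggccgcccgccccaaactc
ANKRD1: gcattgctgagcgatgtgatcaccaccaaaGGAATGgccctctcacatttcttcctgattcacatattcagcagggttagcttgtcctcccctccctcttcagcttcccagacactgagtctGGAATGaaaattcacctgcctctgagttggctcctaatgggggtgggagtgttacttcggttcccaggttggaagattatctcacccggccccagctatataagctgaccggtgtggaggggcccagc
AMOTL2: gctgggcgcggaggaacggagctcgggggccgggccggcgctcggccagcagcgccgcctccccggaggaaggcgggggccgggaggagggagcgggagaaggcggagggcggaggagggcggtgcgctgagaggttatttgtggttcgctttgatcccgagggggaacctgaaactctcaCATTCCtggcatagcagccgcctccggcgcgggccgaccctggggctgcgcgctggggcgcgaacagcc
CTGF held GGAATG 3 times, with first bases at positions -169, -104 and -95, counted from the start. ANKRD1 held it 2 times, at -220 and -128, and AMOTL2 held CATTCC at -69. Promoter windows of 300 bases, 250 before and 50 after the start, were found for 7 of the 10 genes (all but TEAD1, TEAD4 and CYR61). Of these 7, 6 held GGAATG on either strand in a window, and only WWTR1 did not. Counted by window, as the shares over all windows are, GGAATG was in 6 of the 10 windows of these genes. The genes were chosen for their known ties to TEAD, so these counts are a description and no test of the motif. The first base of GGAATG lay at -162 for YAP1 and -59 for AJUBA, and at position 9 after the start for LATS2. AJUBA also had another window, which held no GGAATG. Over all 35116 RefSeq windows of that length, 14.03% held GGAATG at least once, 1.37% at least 2 times and 0.128% at least 3 times. TGANTCA, a loose form of the AP-1 motif that allows any base at its centre, was found in a window of 1 member, ANKRD1, and in 7.71% of all windows. It reads TGATTCA, begins at -195 and does not overlap either GGAATG. A match of letters is not a binding site, and binding of TEAD factors was not measured on these arrays.

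The probe for CTGF (NM_001901, hg19, chromosome 6 from 132270130 to 132270189) had intensities of 86.5 (H1975), 278.6 (OR1) and 214.4 (OR2). Both resistant lines were above H1975, at ratios of 3.67 for OR1 and 2.41 for OR2, and OR1 was above OR2 by more than 2 technical SDs, an order that turned with spike-in scaling (2.42 and 2.53). Ratios as high as these were found for 1.80% of these 18589 genes in OR1 and 4.07% in OR2. Normexp background correction subtracts the local background of each spot under a model and then adds an offset of 50 to every spot. With normexp the ratio of CTGF fell to 1.79 in OR2.

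ANKRD1 (NM_014391, chromosome 10 from 92672562 to 92672621) showed the highest ratios of the 10 genes. Its intensity was 25.6 (H1975), 234.0 (OR1) and 130.8 (OR2), a ratio of 10.4 and 4.975. Only 0.366% of the genes had a ratio as high in OR1 and 0.974% in OR2. The intensity in H1975 was not far above 12.6, the lowest called well above background on that array. With normexp the ratio was 3.63 in OR1 and 2.13 in OR2, lower by more than 2-fold and still above 2 in both lines. From highest to lowest the lines were OR1, OR2 and H1975.

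CYR61 (NM_001554, chromosome 1 from 86048953 to 86049012) was bright on every array, with intensities of 7673 (H1975), 16320 (OR1) and 14970 (OR2). The ratio came to 2.42 for OR1 and 1.90 for OR2, so it passed the ratio of 2 in OR1 only. The OR2 value was within 1 technical SD of a ratio of 2, and with quantile normalization or the authors' own normalized intensities CYR61 was at least 2 in both lines. With spike-in scaling it was at 1.60 in OR1 and 1.99 in OR2. OR1 and OR2 differed by 0.35 on the log2 scale, under 2 technical SDs. Ratios at least as high as those of CYR61 were found for 4.54% of the 18589 genes in OR1 and 7.66% in OR2.

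**Figure D2:**
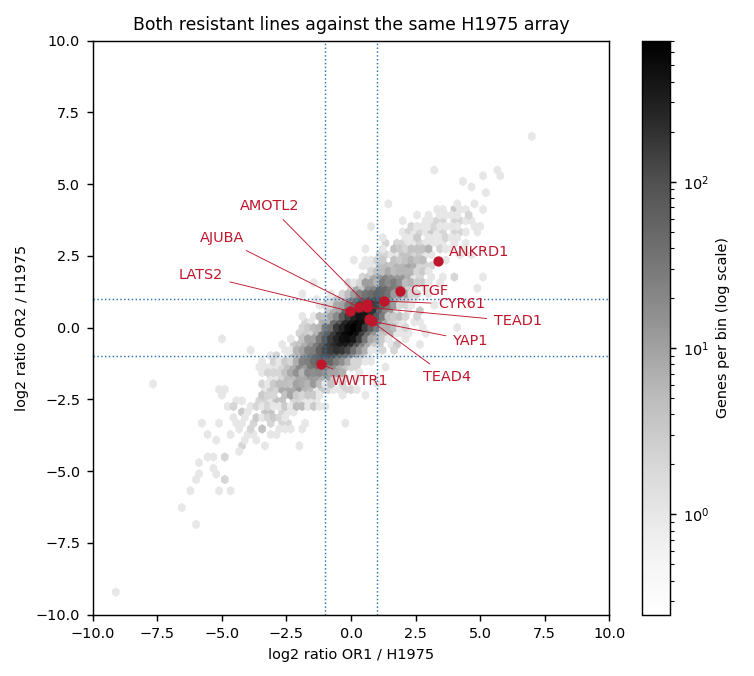
The log2 ratio to H1975 in OR1 (horizontal axis) against that in OR2 (vertical axis) for the 18589 genes well above background on every array, in bins shaded by the number of genes, with the 10 genes as red points and dotted lines at ratios of 0.5 and 2. ANKRD1 and CTGF lay beyond a ratio of 2 in both lines, WWTR1 below 0.5 in both, and the other 7 genes inside at least 1 of the lines; both axes share the H1975 array.

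AMOTL2, LATS2 and AJUBA encode regulators that act back on the pathway, and all 3 were higher in OR2 than in OR1. AMOTL2, an angiomotin family protein that binds YAP1 and retains it at junctions (NM_016201, chromosome 3 from 134074742 to 134074801), had intensities of 2146 (H1975), 2857 (OR1) and 3882 (OR2). The ratio came to 1.52 for OR1 and 1.76 for OR2. AJUBA, a LIM protein that restrains the LATS kinases (NM_032876, chromosome 14 from 23441247 to 23441306), had an intensity of 1751, 1884 and 2944, a ratio of 1.23 and 1.64. Both genes were above H1975 in both lines, AJUBA in OR1 by less than 2 technical SDs and on the other side of 1, at 0.809, with spike-in scaling. Of the 18589 genes, 17.4% had a ratio at least as high as AMOTL2 in OR1 and 9.77% in OR2. For AJUBA these shares were 31.7% and 12.2%.

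LATS2, a kinase that phosphorylates YAP1 and TAZ, was the member whose lines lay on opposite sides of H1975. The intensity of its probe (NM_014572, chromosome 13 from 21547929 to 21547988) was 154.4 (H1975), 131.3 (OR1) and 235.7 (OR2), giving ratios of 0.970 for OR1 and 1.49 for OR2. OR1 did not differ from H1975 beyond the technical SD of 0.21 on the log2 scale, and OR2 was above it by more than 2 technical SDs. Of the 18589 genes, 55.5% had a ratio at least as high as LATS2 in OR1 and 16.3% in OR2.

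The resistant lines thus differed from each other by gene. Between OR2 and OR1 the ratio was lowest for ANKRD1, at 0.477, followed by CTGF at 0.657, YAP1 at 0.671, TEAD4 at 0.756 and CYR61 at 0.783. It lay within 1 technical SD of 1 for WWTR1 (0.949) and TEAD1 (1.05). The ratio was 1.16 for AMOTL2, 1.33 for AJUBA and 1.53 for LATS2. CTGF, CYR61 and ANKRD1 were lower in OR2 than in OR1, and AMOTL2, AJUBA and LATS2 were higher, AMOTL2 by about 1 technical SD, with 1 array behind each value. With spike-in scaling the order of the resistant lines turned for CTGF, CYR61, YAP1 and TEAD4, while ANKRD1 stayed lower in OR2, at 5.22 against 6.88, and AMOTL2, AJUBA and LATS2 stayed higher.

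Position on the chromosome was set beside these ratios. For each member, the 20 nearest genes of the same 18589 were taken, all within 5.08 Mb. The 20 genes around YAP1 had median ratios of 1.24 (OR1) and 1.30 (OR2), and YAP1 in OR2 was below its neighbours. Those around TEAD1 had a median of 1.38 and 1.39, which left TEAD1 higher than its neighbours by 0.17 and 0.23 on the log2 scale, about 1 technical SD. The neighbours of LATS2 were low, at 0.667 and 0.682, so LATS2 was above its neighbours by 0.54 in OR1 and 1.12 in OR2. For ANKRD1 the medians were 1.09 and 1.18, and ANKRD1 exceeded them by 3.26 and 2.08. CTGF exceeded its neighbours (1.18 and 0.941) by 1.64 and 1.36, and CYR61 exceeded its own (1.12 and 1.07) by 1.11 and 0.83. WWTR1 was below its neighbours (0.944 and 0.997) by more than 1 on the log2 scale in both lines. TEAD4 was above its neighbours by 0.495 and 0.27, AMOTL2 by 0.47 and 0.59, and AJUBA by 0.28 and 0.74. Copy number was not measured on these arrays.

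**Figure D3:**
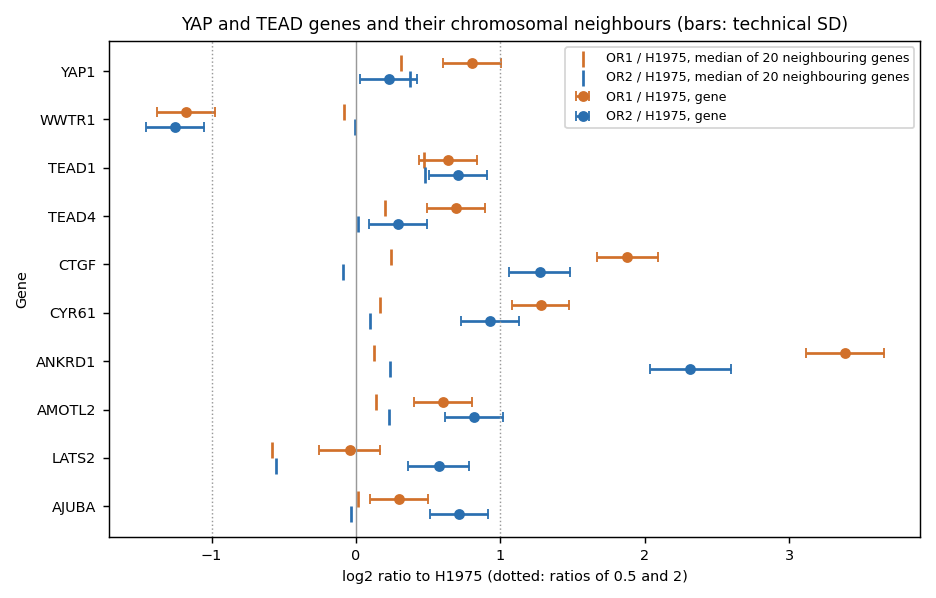
The log2 ratio to H1975 of each gene in OR1 and OR2 (points, with bars of 1 technical SD) and the median of its 20 nearest genes (vertical ticks), with dotted lines at ratios of 0.5 and 2. ANKRD1, CTGF, CYR61 and WWTR1 lay far from their neighbours in both lines, while TEAD1 lay near them and YAP1 in OR2 lay just below them.

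Other genes of the pathway were described by role. Among 17 further genes used as YAP and TEAD targets in cancer cells, 15 passed the background call on at least 1 array. Their median ratio was 1.58 for OR1 and 1.41 in OR2, beside 1.03 and 0.961 over all genes with a ratio. With spike-in scaling the medians of the list were 1.04 and 1.48. In both lines 4 of them had a ratio of at least 2 (AXL, FJX1, CCDC80 and RBMS3), beside 5.09% of all genes. Among the 14 well above background on every array, 3 did, beside 4.77% of such genes. With normexp 3 did, beside 2.06% of all genes, and with the median over all probes 3 of 14 did, beside 4.69%. The list was chosen with earlier results of these data known. A ratio of at most 0.5 in both was found for 1 of 15 (NT5E), beside 6.32%. The ratio lay above 1 in both lines for 10 of 15, beside 35.3%, and below 1 in both for 1, beside 39.4%. With spike-in scaling 2 of them reached 2 in both lines, beside 2.64% of all genes, and 7 lay above 1 in both. The share of all genes above 1 in both lines was not counted with that scaling. AXL, a receptor tyrosine kinase, had intensities of 882.4 (H1975), 2784 (OR1) and 3531 (OR2), a ratio of 3.60 and 3.895. FJX1 had 948.8, 2366 and 2099, a ratio of 2.84 and 2.15. Both rose with a single probe each. CCDC80 rose by ratios of 5.195 for OR1 and 3.04 for OR2 by its brightest probe, with intensities of 81.6, 371.8 and 255.1, while on no array were its other 3 probes well above background. RBMS3, an RNA-binding protein, did not reach that call in H1975, and its intensities of 30.6 in OR1 and 34.2 in OR2 give a ratio of at least 2.78 and at least 2.65. NT5E encodes the ectonucleotidase CD73 and went the other way, with intensities of 2991, 392.4 and 988.3 and ratios of 0.150 for OR1 and 0.322 for OR2. A second probe for NT5E gave 0.332 and 0.440, so both probes fell below 0.5 in both lines. IGFBP3 stood at 3.45 for OR1 and 0.643 for OR2, the widest split between the lines in this list, chosen for mention after its values were seen. In OR1, FJX1 was at 1.87 and RBMS3 at 1.83 under spike-in scaling, and with normexp RBMS3 was at 1.32 and 1.23, while AXL and CCDC80 stayed above 2 in both lines.

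The upstream kinases and adaptors, which restrain YAP1 and TAZ, had a median ratio of 0.708 in each resistant line over 13 genes (0.467 in OR1 and 0.743 in OR2 with spike-in scaling). Over all genes with a ratio the medians were 1.03 (OR1) and 0.961 (OR2). Of the 13, 8 lay below 1 in both lines, beside 39.4% of all genes, and 3 above 1 in both, beside 35.3%. None had a ratio of at least 2 in either line, beside 8.95% of all genes in OR1 and 7.47% in OR2. With spike-in scaling 10 lay below 1 in both lines and 1 above, and 2 were at most 0.5 in both, beside 7.07% of all genes. As reported, STK3 (MST2), a kinase that acts on the LATS kinases, had a ratio of at most 0.5 in both lines. It was 1 of 13, beside 6.32% of all genes. Its intensity was 1556 (H1975), 438.7 (OR1) and 691.3 (OR2), a ratio of 0.322 and 0.432. The dimmer probe for STK3 gave 0.758 and 0.674, so its probes differed in the size of the fall, and their median was 0.494 and 0.540. Its paralog STK4 (MST1), named here after its values were seen, had a ratio of 1.47 and 1.27. In OR2 alone LATS1 (at most 0.445) and WWC1 (0.362) were also below 0.5, beside 8.41% of all genes in that line. LATS1 was dim, with intensities of 27.6 (H1975), 20.4 (OR1) and 9.18 (OR2), and in OR2 it was not well above background. The technical SD of its OR2 ratio was 0.56 on the log2 scale. Among 12 junction and polarity proteins, AMOT alone had a ratio of at least 2 in both lines, beside 5.09% of all genes. Of the 11 well above background on every array, 0 did, beside 4.77% of such genes. CRB3 alone was at most 0.5 in both, beside 6.32%. The median of the list was 1.03 and 1.04 (0.679 in OR1 with spike-in scaling). AMOT, an angiomotin that binds YAP1, did not reach that call in H1975, and its intensities of 74.7 in OR1 and 41.7 in OR2 give a ratio of at least 6.78 and at least 3.23. On no array were the 2 other probes for AMOT well above background, and with normexp the ratio was 2.02 and 1.36. CRB3, a polarity protein of the apical membrane of epithelial cells, had intensities of 938.4, 89.8 and 205.1, a ratio of 0.109 and 0.213. The TEAD factors and cofactors outside the 10 members showed no ratio past 2 or 0.5 in either line over 4 measured genes, with TEAD2 (1.44 and 1.31) and VGLL3 (1.52 and 1.25) above 1 and TEAD3 (0.615 and 0.578) and VGLL4 (0.635 and 0.788) below. With spike-in scaling only 1 of the 4 genes was above 1 in both lines, and the share of all genes was not counted with it. No gene of these lists passed the ratios in opposite directions in the OR lines.

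**Figure D4:**
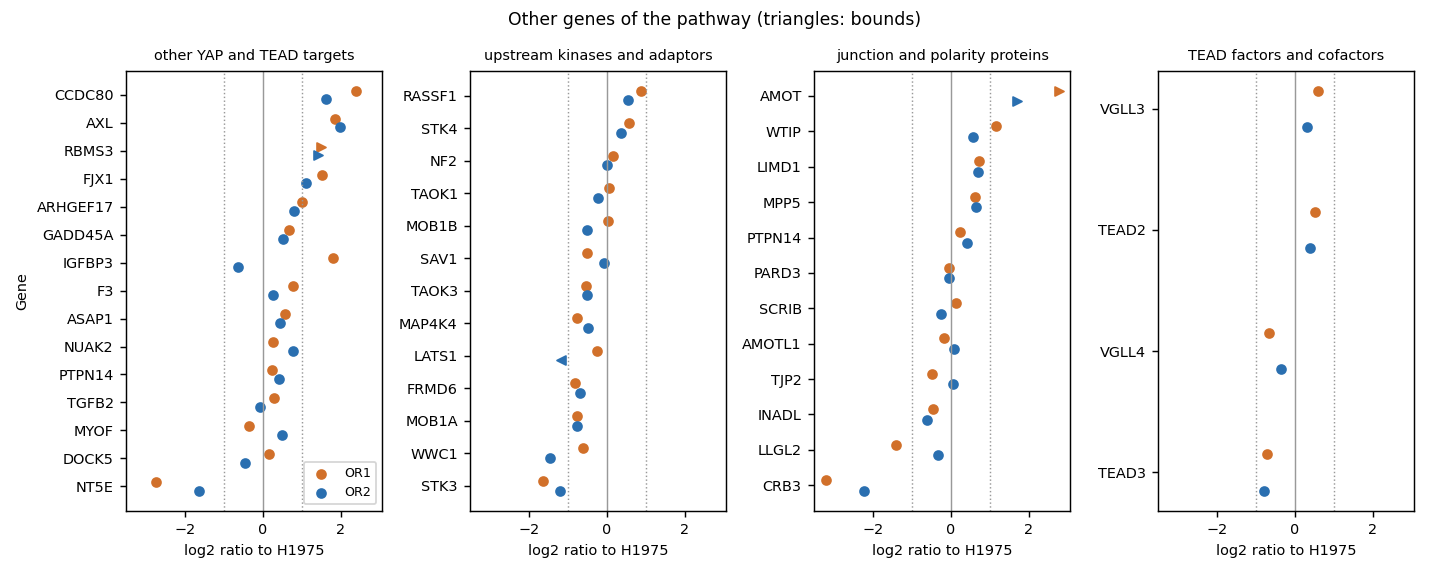
The log2 ratio to H1975 in OR1 and OR2 of the other pathway genes with signal well above background in 1 or more lines, in 4 lists, with triangles for bounds and dotted lines at ratios of 0.5 and 2. AMOT stood highest and CRB3 lowest of the junction and polarity proteins and NT5E lowest of the targets in both lines, CCDC80 (OR1) and AXL (OR2) were the highest targets, and most upstream kinases and adaptors lay below 0 in both lines.

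Markers of the cell type were read beside these results. Of 6 epithelial genes, KRT8 (ratio 1.12 in OR1 and 0.964 in OR2) and KRT18 (0.884 and 0.806) stayed within a ratio of 2. KRT19 (0.463 and 0.492), KRT7 (0.164 and 0.170), EPCAM (0.0370 and 0.0725) and CDH1 (0.0205 and 0.0800) fell below 0.5 in both lines, KRT19 not under every scaling (0.574 in OR2 with quantile normalization). All 6 passed the background call on every array. Of 6 fibroblast genes, COL3A1, DCN and PDGFRA were well above background on no array. LUM was well above background in OR1 only, with a ratio of at least 5.425 there. COL1A1 had a ratio of 1.45 and 0.183, and COL1A2 was at 0.162 and at most 0.0615. Among immune genes, CD3E was well above background on no array, PTPRC (1.12 and 0.949) stayed within a ratio of 2, and CD14 had a ratio of 4.25 and 6.56. No endothelial gene of 3 passed a ratio of 2 or 0.5 in both lines. PECAM1 passed 2 in OR1 (2.10 and 1.19), while VWF (0.776 and 0.927) and CDH5 (0.664 and 1.21) passed neither ratio. These probes were dim, near the lowest intensities called well above background (11.4 to 12.62). In H1975, OR1 and OR2, PECAM1 was at 34.9, 64.3 and 42.8, VWF at 21.4, 14.6 and 20.4, and CDH5 at 32.7, 19.0 and 40.8. PTPRC was also dim, at 21.0, 20.7 and 20.5. With the median over all probes the endothelial median in OR1 was 1.17 instead of 0.776. The part of the epithelial change in the YAP and TEAD ratios was not tested.

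**Figure D5:**
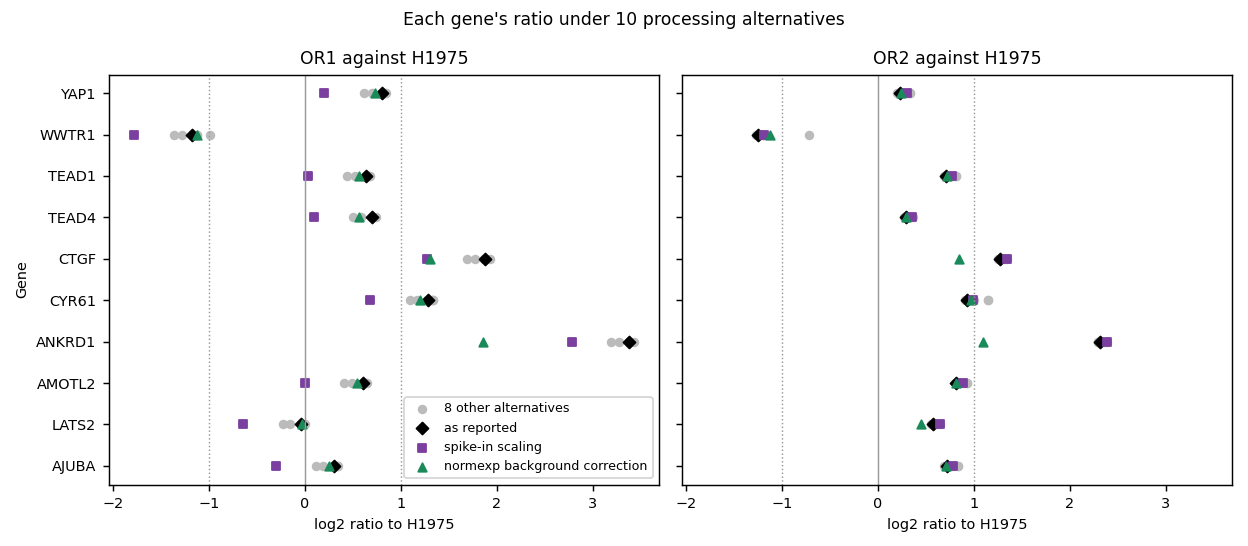
The log2 ratio to H1975 of each gene in OR1 (left) and OR2 (right) as reported (diamonds) and under 10 processing alternatives, with spike-in scaling (squares) and normexp background correction (triangles) drawn apart from the 8 others. In OR1 spike-in scaling put every gene lower, AJUBA to a ratio of 0.809 and AMOTL2 to 1.0, while the OR2 values of most genes barely moved; normexp lowered ANKRD1 and CTGF.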

How the data were processed

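RNA of the lines H1975, OR1 and OR2 was labeled with Cy3 and hybridized to 1 Agilent array per line, and each array was mapped to its line by its label. The deposited files hold the intensity of every spot as the scanner software gave it, corrected for background and spatial trends and not scaled between arrays. The software was Agilent Feature Extraction, version 9.5.1.1 in the submitters' processing notes and 10.7.1.1 in the file headers. A deposited table of normalized intensity values, whose normalization is not named in the sources used here, differed from quantile-normalized scanner values by a median of 0.0013 on the log2 scale over 58200 probes, and was used as an alternative.

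Control spots and spots marked as outliers were left out, repeated spots were averaged on the log2 scale, and each array was divided by its 75th percentile over non-control probes. For each gene the probe with the highest mean scaled log2 intensity was used. A gene not well above background on the dimmer side of a ratio was set to the lowest intensity so called on that array, which gives a bound. Ratios of 2 and 0.5 were those of the methods. The technical SD came from the scanner software's error of each spot, averaged over repeated spots and not reduced for their number. No p-value was computed, and the precision is limited by the number of arrays.

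All 10 members were named with all their probes. Of each pathway list, every gene past the ratios in both lines was named, and for CYR61, CTGF and ANKRD1 the 3 genes with the most similar pair of ratios. The members, the lists and the tests were chosen with earlier results of these data known. Probe positions are on hg19, and promoters came from a RefSeq table of GRCh38.p14. All 10 accessions were found in the RefSeq table, 2 under a newer symbol. A comparison of member proteins was not analysed here. The values of 1 marker gene are not reported here. The 13 alternatives were other scalings (quantile, median, none, 7 spike-in probes, and the probes bright enough on every array), normexp with an offset of 50, the authors' intensities, 2 other filters, outlier spots kept, the median over probes, and ratios of 1.5 and 4 with their inverses. The counting was tested on simulated data. Python 3.11.15, numpy 2.4.6, pandas 2.3.3, matplotlib 3.10.9, R 4.3.3 and limma 3.58.1 were used.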

Additional observations from a re-analysis of the deposited data

Results flagged for a closer look

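LATS2 was the only 1 of the 10 genes whose ratio to H1975 lay on opposite sides of 1 in the resistant lines, 0.970 in OR1 and 1.49 in OR2. The OR1 value was within the technical SD of 0.21 on the log2 scale, and how OR1 and OR2 differ was not tested, since each line has 1 array. Under the 10 alternatives that give ratios, LATS2 ran from 0.640 to 1.0 in OR1 and from 1.36 to 1.56 in OR2.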

How the results depend on the processing

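Over 10 alternatives, 183 of 200 ratios of the 10 genes stayed within the technical SD of the reported value, 17 moved further, and none of the ratios past 2 or 0.5 changed direction. Spike-in scaling accounted for 10 of the 17, 1 for each gene in OR1, and lowered the median log2 ratio of the members in OR1 from 0.66 to 0.063 and that of all genes from 0.039 to -0.59, so the distance between them stayed nearly the same. In OR2 the same scaling moved the median of all genes only from -0.057 to 0.012. The number of members up-regulated in both lines was 1 with normexp, which left ANKRD1, 5 at a ratio of 1.5 and 1 at a ratio of 4. The number down-regulated in both was 0 with the median over probes, where a WWTR1 probe not above background enters, and 0 at a ratio of 0.25. Stricter and looser ratios change counts by construction. The offset of 50 that normexp adds to every spot also draws the ratios of dim genes towards 1 by construction. How much of each change with normexp came from the offset was not tested, and for the other moved values the cause was not tested. Among all genes, 591 instead of 1141 were up-regulated in both lines with spike-in scaling. With normexp 461 were up-regulated and 705 instead of 1417 down-regulated, without a background filter 2057 and 2437, at a ratio of 1.5 2573 and 2957, and at a ratio of 4 265 and 422. Requiring all 3 arrays to be well above background gave 873 down-regulated genes. No paired analysis was possible because each line has 1 array. Genes dim in H1975, such as ANKRD1, have the least certain ratios, and the technical SD does not cover separate cultures.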

Other observations

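The genes whose pair of ratios was most like that of each classical target were found, among 18589 genes with signal well above background on every array, by the Euclidean distance of the log2 ratios in OR1 and OR2. With 3 arrays and 2 ratios that share H1975, many genes lie close to any given gene, and the likeness is a description. CYR61 was nearest to MYC, which encodes a growth-promoting transcription factor, at ratios of 2.41 for OR1 and 1.895 for OR2. The next nearest were PCDHB11, a protocadherin, with 2.41 and 1.90, and XKR6 with 2.39 and 1.91. CTGF was nearest to FSTL1, a secreted glycoprotein, with 3.64 and 2.45, followed by SYTL3 with 3.625 and 2.38 and the long non-coding RNA lnc-SNPH-1 with 3.575 and 2.37. ANKRD1 had no gene as close. Its nearest was the long non-coding RNA LINC01151, with 9.31 and 4.615, at a distance of 0.20 on the log2 scale, followed by LARP6, an RNA-binding protein, with 9.29 and 5.96, and C1orf110 with 12.9 and 4.85, both at 0.31. For CYR61 and CTGF the distances of these genes lay between 0.0078 and 0.048.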
